A study of Homo sapiens with 13 samples.

Results

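The 2 spans of chromosome 19 that hold its main clusters of KRAB zinc-finger genes were examined in CUT&RUN peak lists for LEF1 and TCF7L2. A peak belonged to them when its summit lay on chromosome 19 from 20 to 24.6 Mb, called the p-arm window here, or from 52 to 58.6 Mb, called the q-arm window (hg19). The 12 lists together placed 11252 peaks in these windows, 3913 of them in the p-arm window and 7339 in the q-arm window. The rest of chromosome 19 held 60551 peaks, and all chromosomes held 3429979. Members were chosen by coordinates and not by peak values, though the windows were set with earlier results of these data known.

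The cells were Nalm6, a human line established from B-cell acute lymphoblastic leukaemia and grown in medium with charcoal-stripped serum, which is low in steroids. CUT&RUN cuts DNA with an antibody-tethered nuclease around the antibody's target and sequences the freed fragments. There were 4 groups of 3 replicates, described by the series as independent experiments: LEF1 in control cells, LEF1 after prednisolone at 5 µM for 24 h, and TCF7L2 under both conditions. Prednisolone is a synthetic glucocorticoid; the controls are given no treatment in one label and a vehicle in the protocol. All libraries come from 1 cell line, and 1 further IgG sample was not analysed here.

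KRAB zinc-finger proteins bind DNA through tandem C2H2 fingers and recruit the corepressor TRIM28, which brings the histone methyltransferase SETDB1 and the repressive mark H3K9me3. Their genes multiplied by tandem duplication, many of their products silence transposable elements (ZNF91 acts on SVA elements), and many of the genes themselves carry H3K9me3 over their finger-coding exons. RefSeq (GRCh38.p14, used for names only) lists 563 protein-coding genes with zinc-finger symbols (ZNF, ZSCAN, ZFP, ZIM, ZIK or PEG3), of which 266 (47.2%) are on chromosome 19. The distal long arm also carries immune receptor genes: 50 of the 58 protein-coding genes with KIR, LILR, LAIR, NLRP, SIGLEC or FPR symbols are on this chromosome. LEF1 and TCF7L2 are HMG-box factors of the TCF/LEF family, which activate Wnt target genes with beta-catenin and repress them with TLE corepressors. No hg19 gene annotation was used here, so regions are given by position and not by gene. Zinc-finger genes in the rest of chromosome 19 were not counted either, and that reference was not chosen to be free of them.

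The weakest peaks deposited had an unadjusted MACS2 p-value close to 0.05, and list lengths ran from 128863 to 395786 peaks. Read totals per library are not given in the sources used here, so sequencing depth was not compared. Peaks whose −log10 q-value reached 5 are called strong below. Densities are peaks per Mb of sequence, counted as 10 kb bins with a summit in any list: 4.49 Mb in the p-arm window, 6.58 Mb in the q-arm window and 44.41 Mb in the rest of the chromosome.

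LEF1 peaks were sparse in the zinc-finger windows. The 3 control lists had 718, 498 and 634 peaks there (replicates 1 to 3), and the 3 prednisolone lists had 573, 981 and 306. In the p-arm window LEF1 had 47.6 ± 22.6 peaks per Mb and in the q-arm window 61.5 ± 19.1, against 91.0 ± 23.3 in the rest of the chromosome (mean ± SD, n = 6 libraries). The log2 ratio of window density to the density of the rest was −0.75 ± 0.20 (n = 6), that is a density 0.595 times as high. It was below 0 in 6 of 6 libraries (exact sign-flip permutation test over libraries, two-sided, p = 0.031, the smallest that 6 libraries allow). The p-arm window alone had −1.04 and the q-arm window alone −0.59, each with p = 0.031 in the same exact test.

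TCF7L2 lists held more window peaks, and their shortfall was smaller. The control lists had 1513, 1289 and 1387 window peaks and the prednisolone lists 1277, 1552 and 524. The density was 97.7 ± 34.2 peaks per Mb in the p-arm window and 124 ± 36.6 in the q-arm window, against 136 ± 39.1 in the rest of the chromosome (mean ± SD, n = 6). The log2 ratio was −0.28 ± 0.27 (n = 6), with 5 of 6 libraries below 0 (exact sign-flip permutation test, two-sided, p = 0.09375). The exception was prednisolone replicate 2, the longest list of all with 395786 peaks, at 0.22. Without it the mean was −0.37. Against all other autosomes and X in place of the rest of chromosome 19, the TCF7L2 ratio was −0.012 (exact sign-flip permutation test, p = 0.69) and the LEF1 ratio −0.70 (exact p = 0.031).

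When all peaks were counted, the antibodies differed in the window ratio. The libraries ran from −1.10 to −0.48 for LEF1 and from −0.45 to 0.22 for TCF7L2, ranges wider than the difference of the means. The log2 ratio was higher for TCF7L2 by 0.47 (exact permutation test of the antibody labels within treatment, two-sided, p = 0.005, the smallest possible; 0.015 after Benjamini-Hochberg adjustment over 3 group comparisons). The ranges of the antibodies did not overlap, so any pairing of libraries puts TCF7L2 above LEF1. That 6 of 6 same-numbered pairs had this order therefore adds nothing to the test. The order changed with the peaks counted. Counting only peaks whose −log10 q-value reached 2, the difference was −0.28 (exact permutation test, p = 0.03, adjusted 0.09), and with strong peaks it was 0.12 (exact permutation test, p = 0.36). With the 20000 top peaks of each list, an equal number for all, it was 0.55 (exact permutation test, p = 0.015, adjusted 0.045). Equal rank was not equal strength: a LEF1 control replicate 2 peak at rank 20099 had a −log10 q-value of 6.20. A TCF7L2 prednisolone replicate 3 peak at rank 10370 had 0.66. Between 54.2% and 83.7% of the p-arm peaks in a TCF7L2 list carried q = 1, against 0% to 26.8% in a LEF1 list. The antibodies also differed in this way in the rest of the chromosome, with 43.3% to 71.2% against 0% to 12.8%. The shortest peak of a list split the libraries into 2 sets, control replicate 1 with prednisolone replicates 2 and 3, and the other 3. The split ran in opposite directions. In the first set the shortest peak was shorter for LEF1 (164 to 165 bp against 187 to 197 bp) and longer for TCF7L2 (193 to 201 bp against 158 to 167 bp). Each set therefore compares lists of unlike shortest peak. TCF7L2 exceeded LEF1 by 0.66 in the first set and by 0.29 in the second.

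**Figure D1:**
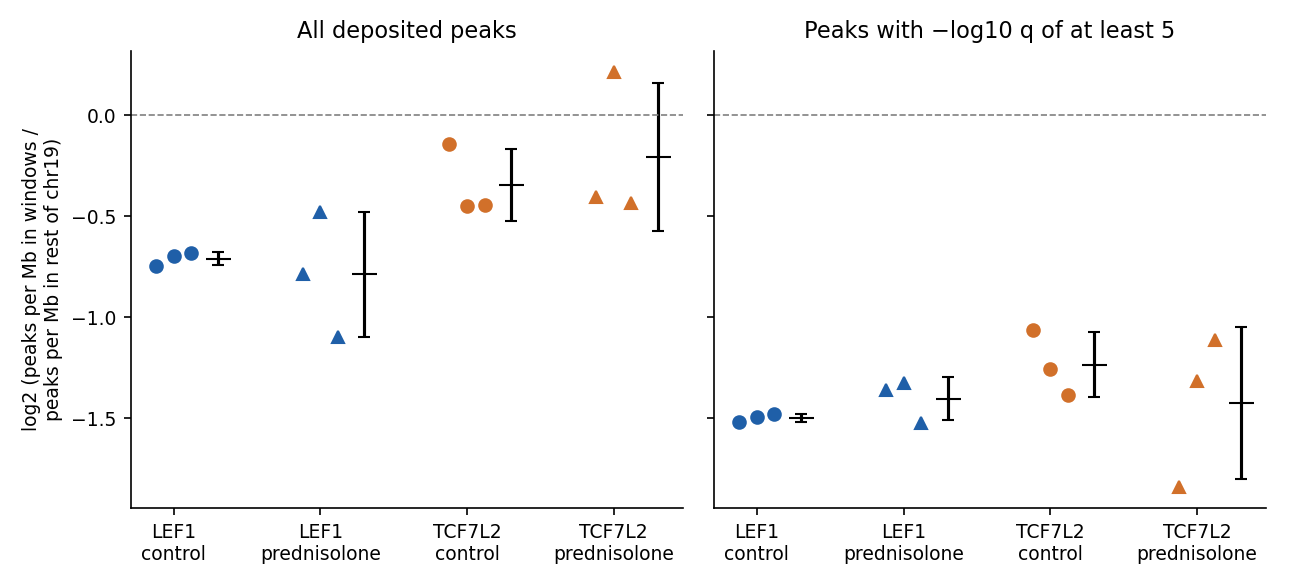
Log2 ratio of peaks per Mb in both windows to peaks per Mb in the rest of chromosome 19, for all deposited peaks (left) and for strong peaks (right). Points are libraries (circles control, triangles prednisolone), black bars are mean ± SD of 3 libraries, and the dashed line marks equal density; for strong peaks all 12 libraries lie between −1.84 and −1.07.

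Among strong peaks both antibodies had well under the density of the rest of the chromosome. LEF1 had 47, 44 and 46 strong window peaks in the control lists and 50, 55 and 40 after prednisolone, beside 462 to 553 in the rest. The log2 density ratio was −1.45 ± 0.086 (n = 6), that is 0.366 times the density of the rest. TCF7L2 had 15, 15 and 19 in the control lists and 10, 9 and 9 after prednisolone, beside 78 to 199 in the rest. Its ratio was −1.33 ± 0.28 (n = 6), or 0.398 times. Both ratios were below 0 in 6 of 6 libraries (exact sign-flip permutation test, p = 0.031 each).

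Summed over the 6 lists of an antibody, the ratio was nearer to 0 among weakly ranked peaks (rank by −log10 p-value within the list), though it did not rise at every step or in every list. In the p-arm window LEF1 went from −2.44 on the log2 scale at ranks 1 to 1000 (2 peaks in 6 lists, both windows together 6) to −2.01 in the class up to rank 5000, −2.24 up to 20000, −1.30 up to 100000 and −0.63 beyond. TCF7L2 had no p-arm peak among the 1000 top peaks of any list, −2.74 in the next class, then −1.34, −0.65 and −0.28. The last of these steps came from 2 of 6 TCF7L2 lists, control replicate 1 and prednisolone replicate 2, whose weakest class had −0.0045 and 0.61, while the other 4 went lower in it, down to −0.83. The same step was upward in 5 of 6 LEF1 lists in the p-arm window, and in 5 of 6 lists of each antibody in the q-arm window. In the q-arm window the 1000 top TCF7L2 peaks stood apart from the LEF1 ones: 44 peaks in 6 lists and a ratio of −0.45, against 4 LEF1 peaks and −1.99. The 44 were 6 to 9 per list and mostly the same places counted again, since 5 regions had such a peak in all 6 lists. The next TCF7L2 class fell back to −1.03. Classes with few peaks (p-arm LEF1 2 and 12, p-arm TCF7L2 16, q-arm LEF1 4) and the 44 recurring q-arm TCF7L2 peaks are a description only. Longer lists reach further into the weak ranks, and the longest list of each antibody, prednisolone replicate 2, also had the highest ratio (−0.48 for LEF1 and 0.22 for TCF7L2).

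**Figure D2:**
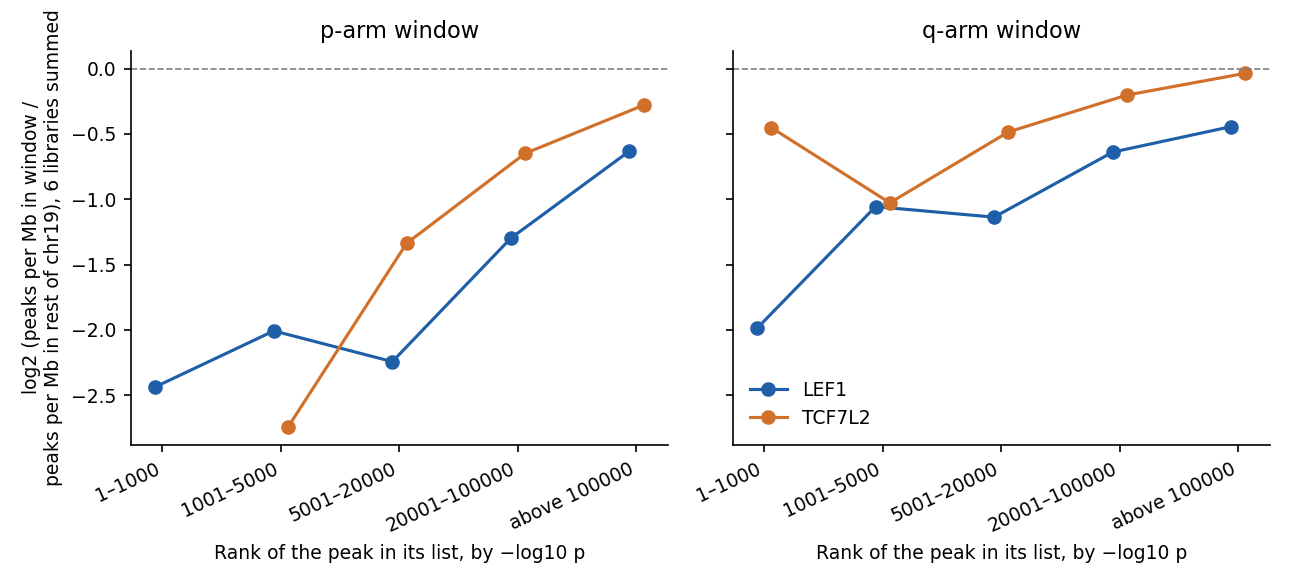
Log2 ratio of window density to the density of the rest of chromosome 19 by rank class, peaks of the 6 libraries of an antibody summed, for each window. The summed values are nearest to the dashed line of equal density in the weakest class (−0.63 and −0.28 in the p-arm window, −0.44 and −0.04 in the q-arm window for LEF1 and TCF7L2), where single TCF7L2 libraries span −0.83 to 0.61 in the p-arm window; TCF7L2 has no p-arm point at ranks 1 to 1000 because no peak fell there.

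The antibodies divided their strong peaks differently between the windows. LEF1 placed 66 strong peaks in the p-arm window, 10 to 13 per list, or 1.96% ± 0.20 of its strong chromosome 19 peaks (mean ± SD, n = 6). TCF7L2 placed 1 there in 6 lists, in control replicate 1, or 0.118% ± 0.290. The difference was −1.84 percentage points (exact permutation test of the antibody labels within treatment, p = 0.005, adjusted 0.01 over the 2 windows). In the q-arm window the order was opposite: 9.0% ± 1.36 of the strong TCF7L2 peaks and 6.40% ± 0.48 of the strong LEF1 peaks, a difference of 2.60 points (exact permutation test, p = 0.015, adjusted 0.015). This comparison was chosen after its values were seen. It depended on the peaks counted: with the 20000 top peaks of each list the p-arm difference was 0.81 points (exact permutation test, p = 0.18), and with −log10 q-values from 2 upward the q-arm difference was 0.080 points (exact permutation test, p = 0.88).

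Within the p-arm window 1 stretch was almost bare of LEF1. From 22 to 23 Mb the LEF1 lists had 6.80 ± 7.49 peaks per Mb (n = 6), between 1 and 21 peaks per list, and no strong peak in any list. It was the 1 Mb bin with the lowest density of the 12 bins in 6 of 6 LEF1 lists. TCF7L2 had 74.1 ± 36.0 peaks per Mb there, 16 to 127 per list, none of them strong, and its lowest bin was this one in 4 of 6 lists. The bins on either side had 62.3 ± 30.5 and 52.9 ± 22.3 LEF1 peaks per Mb, and the end of the window, from 24 to 24.6 Mb, had the most, 84.2 ± 34.7. That end held few strong LEF1 peaks, 4 in 6 lists over 0.58 Mb, against 25 over 0.99 Mb from 23 to 24 Mb. It was the highest of the 12 bins in 3 of 6 LEF1 lists. The longest stretch of the window without any LEF1 peak ran from 22275550 to 22456692 (181 kb), and that without a strong one from 21950455 to 23257984 (1308 kb). How much of this stretch reads could be mapped to was not tested.

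In the q-arm window LEF1 was lowest from 53 to 54 Mb, with 35.0 ± 20.5 peaks per Mb and 1 strong peak in 6 lists. It was highest from 54 to 55 Mb, with 86.7 ± 19.3 per Mb and 65 strong peaks (9 to 14 per list), close to the 91.0 of the rest of the chromosome. TCF7L2 had 0 strong peaks from 53 to 54 Mb and 5 from 54 to 55 Mb, but 29 from 52 to 53 Mb (4 to 5 per list) and 27 from 55 to 56 Mb (3 to 6 per list). The strong TCF7L2 q-arm peaks numbered 76 in all. LEF1 had 42 strong peaks from 52 to 53 Mb, so both antibodies went from many strong peaks there to 1 or none in the next bin.

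**Figure D3:**
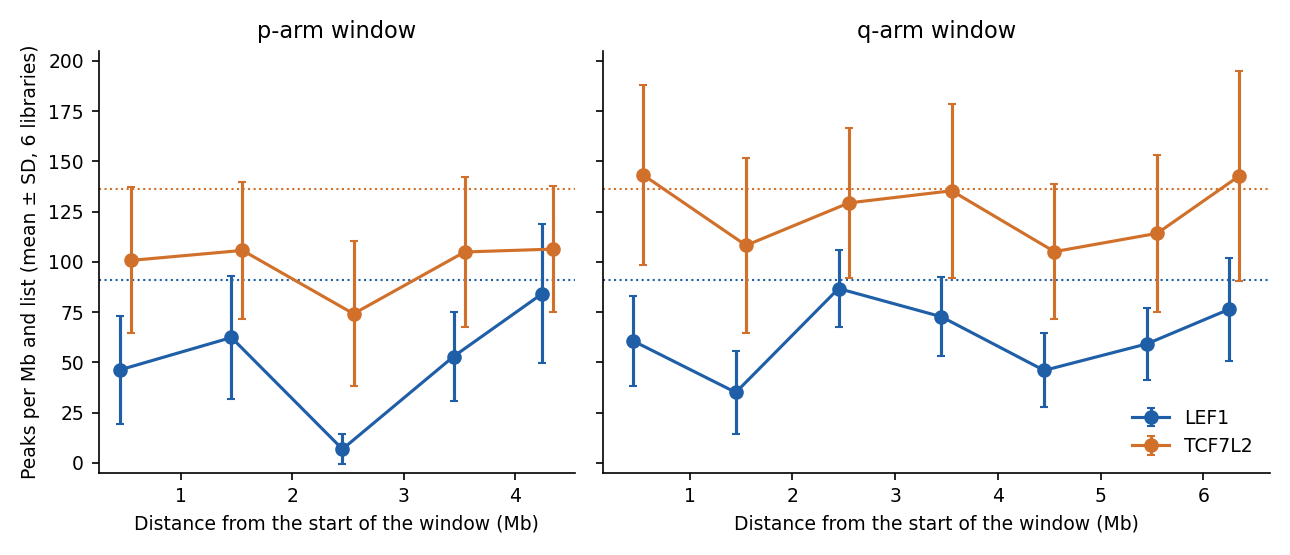
Peaks per Mb in 1 Mb bins along each window, as mean ± SD over the 6 libraries of each antibody, plotted at the distance of the bin from the start of the window. Dotted lines mark the mean density in the rest of chromosome 19 (91.0 for LEF1, 136 for TCF7L2); LEF1 drops to 6.80 per Mb in the third p-arm bin, and the last bin of each window is shorter than 1 Mb.

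The strongest TCF7L2 regions of the windows all lay in the q-arm. After merging overlapping strong peaks of the 6 lists, TCF7L2 had 26 regions in the windows, and 6 had a strong peak in every list. The folds below are the authors' own peak values, over the background modelled by the peak caller, whose control library is not given in the sources used here. They describe the peaks of each list, and folds of different lists are set side by side without a test.

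The highest was chr19:52428960-52432038. Its TCF7L2 fold was 40.3, 34.1 and 38.8 in control replicates 1 to 3 and 35.6, 39.4 and 41.0 after prednisolone, so that the treatments overlapped. Its peak ranked between 116 and 207 in every TCF7L2 list. LEF1 had a peak there in 6 of 6 lists, with folds of 2.42 to 6.26 and a best rank of 14856, and 1 of them was strong.

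Further TCF7L2 regions followed distally, 78372 and then 18261 bp from the end of the one before. At chr19:52510411-52512425 the fold was 11.8, 17.6 and 24.4 in control cells and 18.9, 20.3 and 17.8 after prednisolone, and 4 of 6 LEF1 lists had a peak, none strong. At chr19:52530687-52532900 it was 8.33, 6.36 and 11.8 in control cells and 15.4, 8.18 and 9.67 after prednisolone, with a weak LEF1 peak in 6 of 6 lists (folds 1.84 to 2.57). In both regions the ranges of the treatments overlapped.

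The others lay apart from these. At chr19:55677488-55679202 the TCF7L2 fold was 24.2, 14.5 and 17.0 in control cells and 13.7, 21.3 and 17.7 after prednisolone. At chr19:55813024-55816315 it was 14.0, 17.1 and 21.5 in control cells and 16.8, 11.8 and 10.6 after prednisolone. The last of the 6, chr19:52073383-52075860, was weaker, with folds of 3.15 to 6.65. LEF1 had a peak in 5, 4 and 6 of 6 lists at these regions, and a strong one in 1, 0 and 1.

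LEF1 had 107 strong regions in the windows, and 16 had a strong peak in all 6 lists. The region with the best worst rank was chr19:54885260-54891812, 6553 bp long. Its LEF1 fold was 6.69, 8.96 and 7.85 in control cells and 9.01, 6.20 and 4.94 after prednisolone, at ranks 431 to 2136. It belongs to a run of 4 regions from 54872896 to 54902957, separated by 4546, 833 and 6986 bp, which held 4 of the 16. The neighbour chr19:54898799-54902957 had folds of 5.73, 6.11 and 5.36 in control cells and 7.29, 5.90 and 6.31 after prednisolone. TCF7L2 had a peak in 6 of 6 lists at both, with folds of 2.28 to 4.54 and 2.22 to 3.75, none strong.

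In the p-arm window 3 LEF1 regions were strong in every list. At chr19:21786850-21788145 the LEF1 fold was 7.97, 12.1 and 9.0 in control cells and 12.3, 7.07 and 8.32 after prednisolone. This was the 1 region of the windows with a peak among the 20000 top peaks of all 12 lists, of 347 regions (0.288%), against 23 of 2421 (0.950%) in the rest of the chromosome. TCF7L2 folds there were 5.61, 3.56 and 3.46 in control cells and 4.02, 4.23 and 3.88 after prednisolone, and it holds the single strong TCF7L2 peak of the p-arm window. At chr19:23980915-23983211 the LEF1 fold ran from 5.52 to 9.13 and at chr19:20608168-20610375 from 4.92 to 9.43. The other named LEF1 region, chr19:55097485-55098683 in the q-arm, had 10.7, 10.3 and 7.34 in control cells and 12.1, 5.37 and 6.20 after prednisolone.

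**Figure D4:**
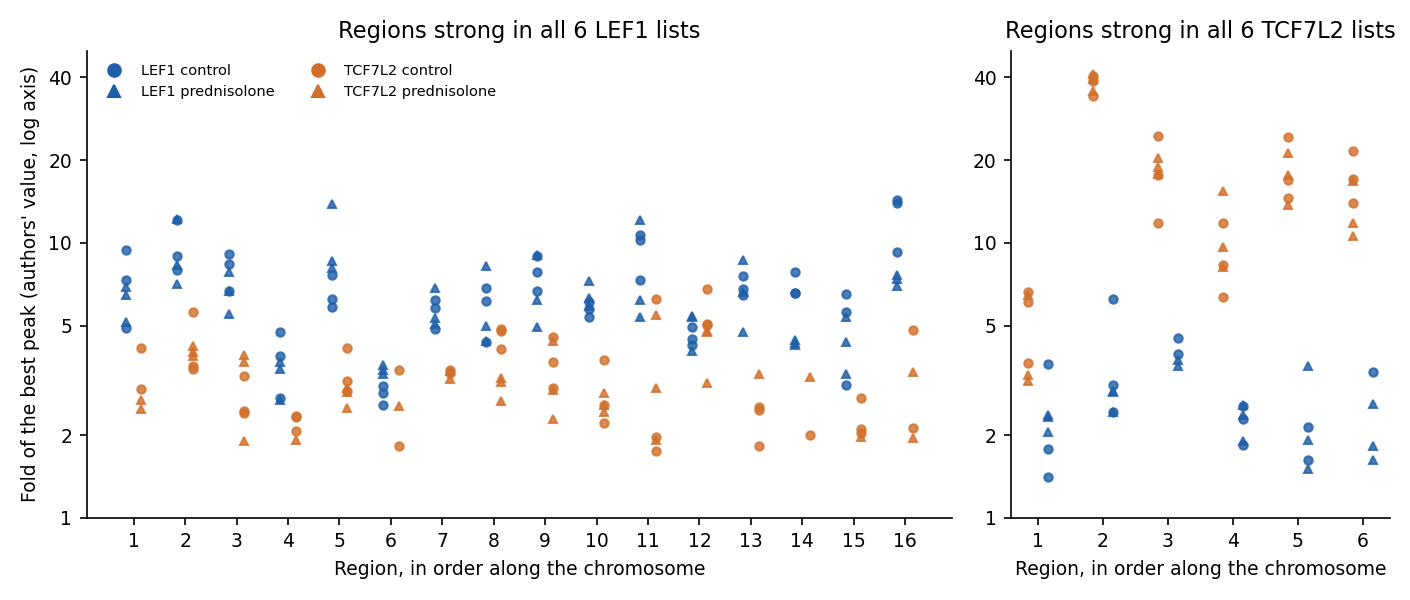
Fold of the best peak in each list (authors' value, log axis) at the 16 regions strong in all 6 LEF1 lists (left) and the 6 strong in all 6 TCF7L2 lists (right), in order along the chromosome; blue is LEF1, orange TCF7L2, circles control, triangles prednisolone, and a list without a peak has no point. The TCF7L2 folds of regions 2 to 6 (right) reach from 6.36 to 41.0, while the LEF1 folds of the left panel end at 14.3.

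Coincidence of the antibodies at these regions was counted beside the rest of the chromosome. Of the 6 TCF7L2 regions 3 (50%) met a strong LEF1 peak in any list and 0 met one in 4 or more of the 6 LEF1 lists. In the rest of the chromosome the corresponding counts were 25 (51.0%) and 18 (36.7%) of 49. Of the 16 LEF1 regions 4 (25%) met a strong TCF7L2 peak in any list and 1 (6.25%) in 4 or more, against 67 (37.9%) and 21 (11.9%) of 177. The 1 was chr19:55765021-55765883, where LEF1 folds ran from 4.04 to 5.42 and TCF7L2 folds from 3.09 to 6.78. With the 20000 top peaks, 3 of 17 LEF1 consensus regions of control cells in the windows overlapped a TCF7L2 consensus region, or 17.6% (95% Clopper-Pearson interval 3.80% to 43.4%), against 69 of 233, or 29.6% (23.8% to 35.9%), in the rest. A consensus region has a top peak in all 3 lists of its group. After prednisolone the shares were 1 of 16, or 6.25% (0.158% to 30.2%), and 41 of 226, or 18.1% (13.3% to 23.8%). Single libraries moved the window shares: the control share was 29.4% without TCF7L2 control replicate 2, and the prednisolone share was 18.8% without TCF7L2 prednisolone replicate 1 and 12.5% without replicate 3. The intervals for the windows contain the shares of the rest at this number of regions, and no test was made.

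No shift of the window ratio with prednisolone was detected beyond the spread of the replicates. For LEF1 the log2 density ratio of control cells was −0.71 ± 0.033 and that of treated cells −0.79 ± 0.31 (n = 3 each), a difference of −0.078 (exact permutation test, two-sided, p = 0.7, adjusted 0.7). For TCF7L2 it was −0.35 ± 0.18 and −0.21 ± 0.37 (n = 3 each), a difference of 0.14 (exact permutation test, p = 0.5, adjusted 0.7). With 3 libraries against 3 this test cannot go below 0.1. The direction rested on 1 library in each case: without LEF1 prednisolone replicate 3 the difference was 0.078, and without TCF7L2 prednisolone replicate 2 it was −0.074. Within the 2 sets of libraries the differences were −0.04 and −0.10 for LEF1 and 0.03 and 0.04 for TCF7L2. The difference between both treatment effects was 0.22 (exact permutation test, p = 0.465).

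The strong TCF7L2 peaks of the windows were fewer after prednisolone in count, with 16.3 ± 2.31 per control list and 9.33 ± 0.577 per prednisolone list (n = 3 each), and every prednisolone list was below every control list. Relative to the strong peaks of the rest of the chromosome (156 ± 38.0 and 104 ± 35.2), the log2 difference was −0.19 (exact permutation test, p = 0.6). LEF1 had 45.7 ± 1.53 and 48.3 ± 7.64 strong window peaks, and the lists of both treatments overlapped.

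Of the 26 strong TCF7L2 regions of the windows, 13 (50%) had a strong peak only in control lists and 0 only in prednisolone lists. In the rest of the chromosome 44.2% of 303 regions were of the first kind and 14.9% of the second, so the windows were near the background in the first. Of the 13, 10 were strong in a single control list. The other 3, named after their values were seen and strong in 2 control lists and no prednisolone list, were chr19:54056985-54057804, chr19:54880704-54882911, which lies inside the LEF1 run described above, and chr19:56110625-56110833. For LEF1 26 (24.3%) and 36 (33.6%) of 107 regions were strong only in control or only in prednisolone lists, against 24.0% and 24.1% in the rest. The prednisolone-only share was thus above that of the rest, and this difference was not tested. Of the 36, 26 were strong in a single list and 1 in all 3, beside 167 and 24 of 243 in the rest. With −log10 q-values from 2 the order turned, with 98 control-only and 85 prednisolone-only LEF1 regions in the windows.

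Few regions changed under the rule that all 3 lists of one treatment and none of the other hold a top peak. LEF1 had 79 regions in the windows made from the 20000 top peaks, of which 2 were gained and 0 lost. Over all regions of the genome 2.83% were gained and 1.92% lost, and in the rest of the chromosome 3.08% and 2.44%. TCF7L2 had 318 regions, of which 1 was gained and 2 were lost, and no TCF7L2 peak in these gained and lost regions was strong. The genome had 0.365% and 1.23%, and the rest of the chromosome 0.418% and 1.44%. At this number of regions these counts are near the background.

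The gained LEF1 regions were of different kinds. At chr19:23562487-23562739, 253 bp long, the fold was 5.54, 14.9 and 5.73 in the prednisolone lists. Of the control lists only replicate 2 had a peak, with a fold of 3.78 at rank 20099, just outside the 20000 top peaks. At chr19:52674163-52675562 the fold was 3.33, 3.60 and 3.45 after prednisolone, and 2.83, 2.57 and 3.02 in control cells, where the best rank was 20765. The values of both treatments did not overlap, and all 6 lists had a strong peak.

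The gained TCF7L2 region, chr19:24574739-24575906, lies near the centromeric end of the p-arm window. Its fold was 3.7, 2.90 and 2.34 after prednisolone and 2.36, 1.74 and 2.57 in control cells, so that the folds overlapped while the ranks did not (4977 to 9798 against 47748 to 283058). The −log10 q-values of its prednisolone peaks were 2.44, 1.19 and 0.79. The lost TCF7L2 region chr19:58325426-58326256 had folds of 4.11, 3.35 and 4.15 in control cells and 1 prednisolone list with a peak, at 1.58. At the other, chr19:55008528-55009829, TCF7L2 had 3.31, 3.59 and 3.84 in control cells and 1 prednisolone list with a peak, at 2.80. LEF1 had a peak there in 6 of 6 lists, with 4.80, 5.73 and 3.16 in control cells and 4.71, 7.12 and 6.18 after prednisolone.

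At the 16 LEF1 regions strong in all lists, the folds of both treatments did not overlap in 4. They were higher after prednisolone in 2 and lower in 2, and in the rest of the chromosome 13.0% of 177 regions were higher and 13.0% lower, so 12.5% each way is at the background. Those 4 were chosen after their values were seen. Among the lower ones, chr19:58186864-58188072 had 9.23, 14.3 and 14.0 in control cells and 7.65, 7.39 and 6.97 after prednisolone, and chr19:57974673-57977526 had 6.57, 7.85 and 6.59 and then 4.44, 4.24 and 4.32. Among the higher ones, chr19:52312887-52314431 had 6.23, 5.82 and 7.64 in control cells and 8.09, 13.9 and 8.6 after prednisolone. None of the 6 TCF7L2 regions had folds without overlap, beside 4.08% higher and 14.3% lower of 49 in the rest.

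Peaks were slightly narrower in the windows. The median length of a window peak was 294 to 384 bp in the LEF1 lists and 247 to 324 bp in the TCF7L2 lists, below the median of the rest of the chromosome in 12 of 12 lists (324 to 411 bp and 263 to 337 bp). Their median place in the ranking of the list was lower than that of the other chromosome 19 peaks in 6 of 6 LEF1 lists and in 5 of 6 TCF7L2 lists.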

How the data were processed

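CUT&RUN peaks of LEF1 and TCF7L2 in Nalm6 cells were taken as deposited. The authors called them with MACS2 on hg19, per the submitters' processing notes, and separately for each sample, per the peak names. The MACS2 version, aligner, control library, duplicate handling and removal of problem regions are not given in the sources used here. Each deposited peak has a fold ratio over the modelled background, a −log10 p-value, a −log10 q-value, a whole-number score that was not used here and a summit. Within a list 0 peaks overlapped.

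Peaks were assigned by summit. Density ratios, merging on 1 bp overlap and exact permutation tests were computed in Python 3.11.15 with numpy 2.4.6, pandas 2.3.3 and SciPy 1.17.1, and checked on simulated lists. Top peaks are the 20000 best by −log10 p-value and then fold, with equal peaks at the limit in random order, since order by position favours the first chromosomes. Lengths of lists were not equalised in the counts of all peaks. The p-value threshold was 0.05, and intervals are exact 95% Clopper-Pearson intervals, which cover counting error only. Regions named are, per antibody, the 5 with the best worst rank among those with a top peak in all 6 lists, up to 3 gained and 3 lost, up to 5 with a top peak in all 12 lists, and extreme 1 Mb bins. Regions outside this rule are those strong in all 6 lists and those said to be chosen after their values were seen. The windows, lists and tests were chosen with earlier results of these data known. The replicate number was not used as a block in the main tests, and the labels do not tie it to a shared experiment. Same-numbered LEF1 and TCF7L2 libraries deviated from their group means to the same side in 2 of 6 pairs. These were prednisolone replicates 2 (0.31 and 0.42) and 3 (−0.31 and −0.23), with the largest deviations of each antibody. The other pairs deviated to opposite sides. A count of sides cannot decide whether same-numbered libraries shared an experiment.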

Additional observations from a re-analysis of the deposited data

Results flagged for a closer look

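Of the groups of 6 libraries examined, 1 had a library set apart from the others: for strong TCF7L2 peaks in the q-arm window, the log2 ratio to the density of the rest of chromosome 19 was −1.09 in prednisolone replicate 1, while the mean of the 6 libraries was −0.60 ± 0.26 (SD). That list had 10 strong q-arm peaks beside 144 in the rest of the chromosome. About 1 in 20 groups is set apart in this way by chance.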

How the results depend on the processing

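The shortfall of LEF1 in the windows kept its direction under every alternative run; leaving out each library gave −0.80 to −0.68, each with an exact p of 0.0625, the smallest that 5 libraries allow. For TCF7L2 it passed the threshold with −log10 q-values from 2 (−1.38), from 5 (−1.33) and with the 20000 top peaks (−0.95), but was −0.012 (exact p = 0.69) against all other autosomes and X, where LEF1 had −0.70. The treatment difference had no stable direction. For LEF1 it was 0.0096 from q 2, 0.094 from q 5, 0.27 with the top peaks and −0.23 to 0.078 with a library left out. For TCF7L2 it was −0.079 from q 2, −0.19 from q 5, 0.53 with the top peaks (exact p = 0.2) and, against all other autosomes and X, −0.040, and −0.074 to 0.25 with a library left out. TCF7L2 against LEF1 was −0.28 from q 2, 0.12 from q 5, 0.55 with the top peaks (adjusted exact p = 0.045) and 0.69 against the other chromosomes. The cause was not tested in these cases.

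A replicate block gave −0.08 for LEF1 and 0.14 for TCF7L2 (exact p = 0.75 each, smallest possible 0.25), and 0.47 between antibodies (exact p = 0.031, adjusted 0.094, so this call was lost after adjustment). The labels do not tie a number to a shared experiment. Same-numbered libraries deviated to the same side in 2 of 6 pairs, a count that cannot decide whether they shared one.

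Counts of changed regions moved with the lists. LEF1 had 5 gained and 14 lost with full lists, 0 gained with 5000 top peaks, 4 lost from q 2, and 2 to 9 gained and 0 to 2 lost with a library left out (9 gained without prednisolone replicate 1, 4 without replicate 3). TCF7L2 had 2 gained and 17 lost with full lists, 0 and 1 with 5000 top peaks, 0 gained from q 2 or with 200 bp around the summit, and 1 to 4 gained and 3 to 8 lost with a library left out (4 gained without prednisolone replicate 1 or 3, 2 without replicate 2; 4, 8 and 6 lost without control replicates 1, 2 and 3, 5 without prednisolone replicate 1); with a library left out the rule asks for fewer lists. The control overlap share was 3.23% from q 2 and 13.6% to 29.4% with a library left out. The prednisolone share was 1.75% from q 2, 17.8% with full lists, 24.2% with consensus in 2 of 3 lists and 5% to 18.8% with a library left out. Among alternatives added after seeing the data, the p-arm share difference was 0.81 points with the top peaks and the q-arm one 0.080 points from q 2. From q 2 there were 98 control-only and 85 prednisolone-only LEF1 regions, 42 and 13 for TCF7L2, and 5 higher and 4 lower LEF1 folds. Depth per library and mappability of the windows were not analysed here.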
